A study of Mus musculus with 17 samples.

Results

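Day 6 germ cells of the mouse testis were compared with adult spermatogonia that lack the GDNF receptor GFRA1, to show which transcripts of the adult progenitor cells the neonatal cells share and which they lack. The comparison took 8 of the 17 RNA sequencing libraries, all of sorted testis cells from Tert-Tomato/+ mice of the B6/J X B6/N mixed background. In the P6gonocyte group (n = 4) cells came from day 6 neonates and carried TERT and, by the sample titles alone, an OCT4-GFP signal. In the GFRA1neg group (n = 4) they came from adults of unstated age and were TERT-High, GFRa1- and Kit-. GFRA1pos (n = 4, TERT-High, GFRa1+, Kit-) and KITpos (n = 5, TERT-High, Kit+) adult libraries are used only to place levels. The labels name no sort of the day 6 cells by GFRA1 or Kit, and they do not say whether libraries of a group came from separate animals or from pools, so the spread behind each p-value is that of these libraries and may be technical only. Age, gate and reporter all differ between the groups and cannot be told apart.

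Gonocytes are the germ cells of the fetal and newborn testis. After birth they move to the wall of the seminiferous tubule, resume dividing and give rise to spermatogonial stem cells, while some pass directly into the first round of differentiation. In the adult, GDNF from Sertoli cells signals through GFRA1 and RET to hold stem cells undifferentiated, and cells that lose GFRA1 and express Neurog3 and the retinoic acid receptor gene Rarg are progenitors that respond to retinoic acid by expressing Kit and Stra8.

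Total counts ran from 6479216 to 8468203 in P6gonocyte libraries and from 9965437 to 12641907 in GFRA1neg libraries. A row without a gene symbol held 11.97% ± 2.17 of the counts in P6gonocyte and 27.3% ± 2.70 in GFRA1neg (SD, n = 4 each). Levels are given in CPM, the reads of a gene scaled to a common library size, with library sizes scaled by TMM. Where all 4 libraries had no count, a level of up to 0.0924 CPM in P6gonocyte or 0.0716 CPM in GFRA1neg is allowed, by 3 counts over the group, which covers counting error only. A pair of libraries stood apart. Summed CPM of 12 spermatid markers was 2462 in GFRA1neg replicate 2, against 603 to 947 in the other 3 GFRA1neg libraries. P6gonocyte replicate 2 was lowest of its group in Pou5f1 and Mki67 and highest in the Sertoli list described below. In bulk libraries, fewer cells of a type and less RNA per cell cannot be told apart.

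The genes of the gates were read first, as a description. Gfra1, which encodes the GDNF receptor, had 151, 118, 154 and 157 CPM in P6gonocyte replicates 1 to 4, against 18.6, 25.6, 21.7 and 25.4 CPM in GFRA1neg. Kit, the receptor of stem cell factor, had 172, 231, 182 and 166 CPM in P6gonocyte, against 24.2, 49.3, 18.5 and 18.5 CPM in GFRA1neg. Day 6 libraries held both transcripts that the adult gate selected against. Pou5f1, the gene of OCT4, had 23.1, 5.53, 26.3 and 24.1 CPM in P6gonocyte, against 5.46, 3.12, 4.39 and 4.15 CPM in GFRA1neg. P6gonocyte replicate 2 had almost the same Pou5f1 level as GFRA1neg replicate 1. Tert, the telomerase catalytic subunit, was low throughout, with 7.21 CPM ± 1.45 in P6gonocyte and 11.3 ± 3.05 in GFRA1neg (SD, n = 4 each).

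Over the whole table, the edgeR quasi-likelihood test called 43.6% of 15451 genes at an adjusted p under 0.05. Of these 2899 (18.8%) rose and 3842 (24.9%) fell in P6gonocyte. Rises over 2-fold numbered 1002 (6.49%) and falls over 2-fold 2581 (16.7%). The median log2 fold change of all genes was -0.09. Likeness was counted separately, from genes of at least 20 CPM in a group whose 95% interval of the log2 fold change lay wholly between -1 and 1, here called held within 2-fold. This was so for 4757 of 7527 genes (63.2%), of which 3392 were not called. The calls of each gene list below stand beside these shares of all genes. Held members of a list are counted out of all its tested members, and those under 20 CPM in both groups could not be held. Over all 15451 tested genes, the held share counted in that way was 30.8%. Among the 6 most abundant of these outside the gene lists, the elongation factor gene Eef1a1 and the ubiquitin ligase genes Huwe1 and Trip12 were not called, while Ywhae (0.64) and Pabpc1 (0.45) rose on the log2 scale. The call on Pabpc1 was lost without P6gonocyte replicate 4 (adjusted p = 0.061) or GFRA1neg replicate 2 (0.061). Eef2, the sixth, was not called (-0.38), but it was called lower under 9 alternatives, among them DESeq2 (adjusted p = 0.025) and the fits without P6gonocyte replicate 2 (-0.52, 0.013) or GFRA1neg replicate 2 (-0.46, 0.031).

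**Figure D1:**
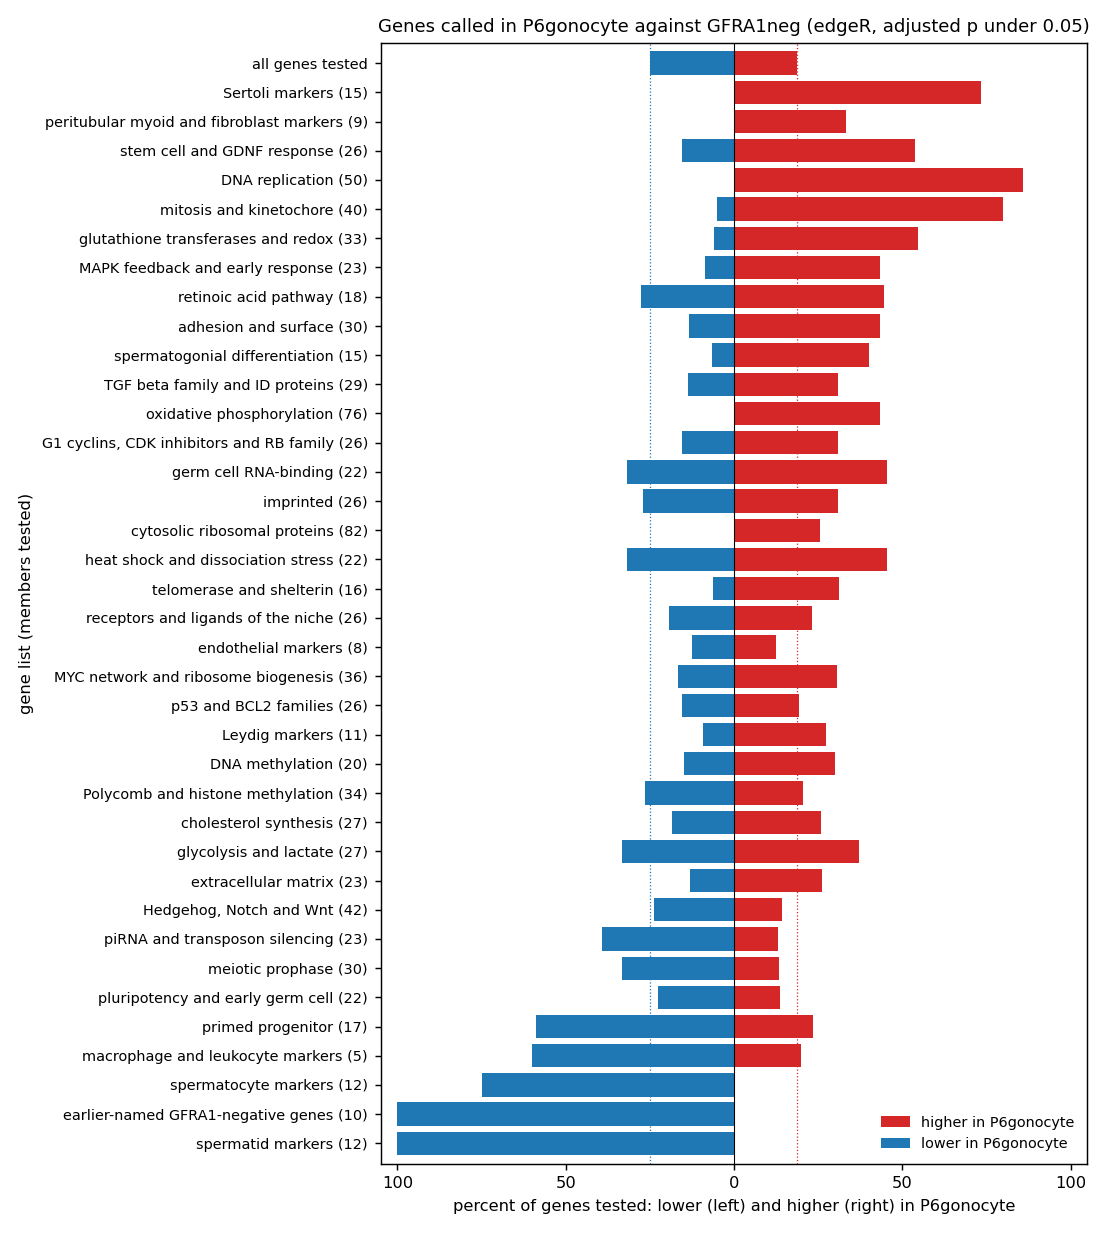
Percent of the tested members of each gene list that edgeR called higher (red, right) or lower (blue, left) in P6gonocyte than in GFRA1neg, with all 15451 genes at the top, dotted lines at their shares, and lists ordered by median log2 fold change. DNA replication (43 of 50) and mitosis (32 of 40) members lay mostly to the right and primed progenitor members (10 of 17) mostly to the left.

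Day 6 cells had lower levels of most transcripts by which GFRA1-negative progenitors are known, Neurog3 and Rarg among them, and higher levels of the germ cell genes Dazl, Sohlh2 and Ddx4. Of 17 primed progenitor genes, 10 fell and 4 rose, beside 24.9% and 18.8% of all genes, with a median log2 fold change of -0.61. The list was chosen with earlier results of these data known. Neurog3 and Ddit4, counted among the falls, had been named from the same GFRA1neg libraries. Neither the direction nor the size of their falls is thus independent evidence. Neurog3 (Entrez 11925), a transcription factor of progenitors, had 9.16, 7.33, 9.52 and 5.63 CPM in P6gonocyte, against 37.5, 28.1, 46.9 and 44.6 CPM in GFRA1neg. The groups did not overlap, and the fall was 4.96-fold (log2 fold change -2.31 ± 0.38 SE, edgeR adjusted p = 0.00012). Its mean in GFRA1pos was 5.08 CPM and in KITpos 2.47 CPM, so all 3 other groups lay below GFRA1neg. Rarg, the receptor through which progenitors sense retinoic acid, had 10.0, 9.26, 13.1 and 8.38 CPM in P6gonocyte, against 49.3, 31.3, 47.1 and 48.3 CPM in GFRA1neg. That was a 4.31-fold fall with no overlap (edgeR adjusted p = 2.9e-06).

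The largest fall in the list was of Upp1, the uridine phosphorylase gene, at 12.9 CPM ± 3.04 in P6gonocyte and 85.2 ± 15.6 in GFRA1neg (SD, n = 4 each). Ddit4, which encodes an inhibitor of mTORC1, had 2.92, 5.41, 5.80 and 3.99 CPM in P6gonocyte, against 23.7, 18.2, 30.6 and 34.8 CPM in GFRA1neg. Lin28a, a let-7 inhibitor, was abundant in both groups and yet fell 3.06-fold, to 225 CPM ± 18.7 in P6gonocyte, against 688 ± 128 in GFRA1neg (SD, n = 4 each). Falls were smaller for the translational repressor gene Nanos3 (log2 -1.37), for Sox3 (-1.36), which encodes a transcription factor, and for Foxo3 (-1.15). Msi2 (-0.61) and Glis3 (-0.54) also fell but were held within 2-fold, and the call on Glis3 was lost without P6gonocyte replicate 2 (adjusted p = 0.094), GFRA1neg replicate 3 (0.065) or GFRA1neg replicate 4 (0.067).

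The members that rose were germ cell identity genes. Dazl, an RNA-binding protein gene needed to license germ cells, had 799, 741, 907 and 1032 CPM in P6gonocyte, against 474, 304, 493 and 359 CPM in GFRA1neg, a 2.13-fold rise with no overlap. Sohlh2, a helix-loop-helix factor of differentiating spermatogonia, rose by 1.12 ± 0.18 (SE) on the log2 scale (edgeR adjusted p = 8.0e-05). Ddx4 (0.65) and Tex14 (0.34), the genes of the VASA helicase and of an intercellular bridge protein, rose while held within 2-fold. The call on Tex14 was lost when any of 6 libraries was left out, at adjusted p values of 0.053 to 0.099. Sohlh1, at -0.45 (interval -0.95 to 0.04), and Taf4b, at -0.10 (-0.38 to 0.18), were held within 2-fold and not called, although Sohlh1 was called lower when only the 2 groups were fitted (adjusted p = 0.032). Rhox10 was not called either and was too low to be counted as held.

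**Figure D2:**
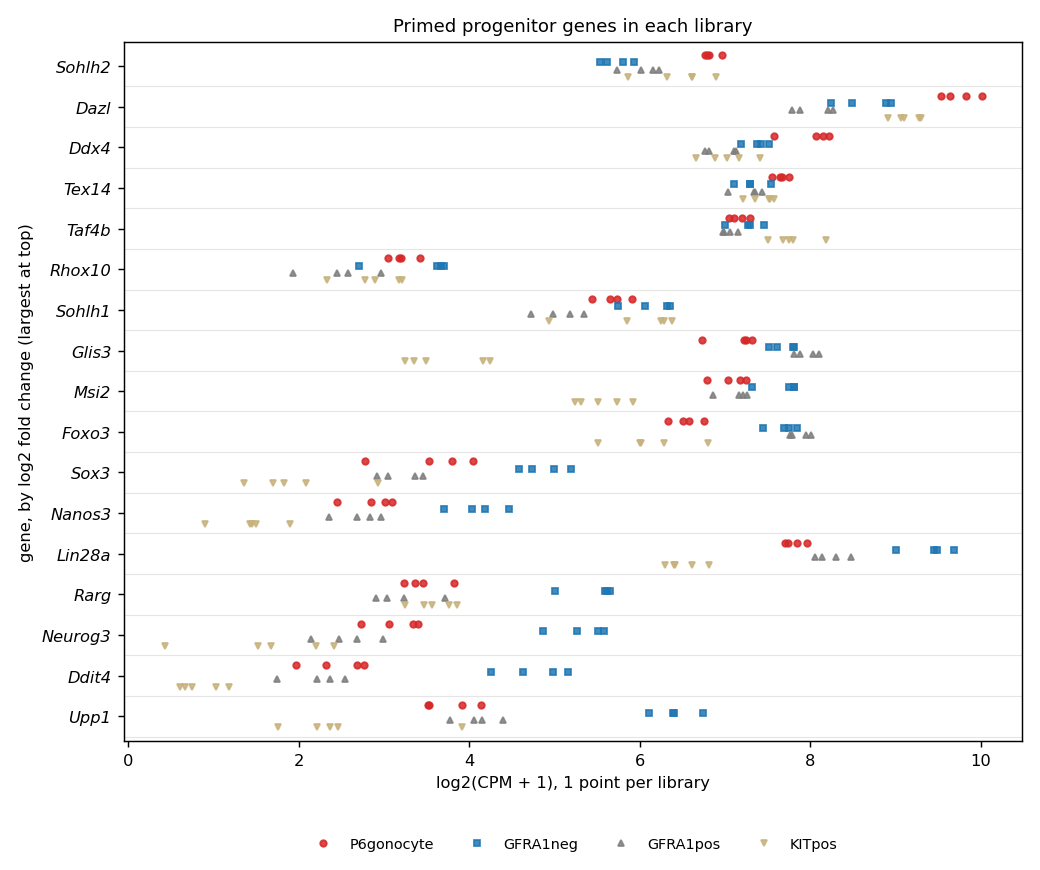
Level of each primed progenitor gene as log2(CPM + 1), with a point for every library of P6gonocyte (red circles), GFRA1neg (blue squares), GFRA1pos (grey) and KITpos (sand), and genes ordered by the log2 fold change of P6gonocyte over GFRA1neg. From Foxo3 down to Upp1, every P6gonocyte point lies left of every GFRA1neg point.

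Earlier results of these data had named 10 genes as marks of GFRA1neg cells, Neurog3 and Ddit4 among them. Since they were chosen on the same GFRA1neg libraries, neither the direction nor the size of their falls here is independent evidence. All 10 were called lower in P6gonocyte, at a median of -2.63 on the log2 scale, and their levels are given as a description. The neural transcription factor gene Nr2e1 had 2.68 CPM ± 0.93 in P6gonocyte and 38.5 ± 10.4 in GFRA1neg (SD, n = 4 each), a 14.4-fold fall. Tmem63c had 7.50, 4.33, 7.97 and 5.50 CPM in P6gonocyte, against 62.4, 54.2, 68.9 and 70.0 CPM in GFRA1neg. Cmklr1, the chemerin receptor gene, fell by 3.29 on the log2 scale, Mobp by 3.22, Onecut2 by 2.70 and Epb41l4a by 2.02.

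A pair of members departed least from the adult level. Six4, a homeobox gene, had 57.9, 31.0, 68.0 and 54.8 CPM in P6gonocyte, against 108, 92.1, 143 and 158 CPM in GFRA1neg, with means of 12.8 CPM in GFRA1pos and 1.45 CPM in KITpos. Cxcl12, the gene of a chemokine, had 23.7, 13.8, 30.5 and 21.2 CPM in P6gonocyte, against 40.6, 25.4, 53.6 and 50.3 CPM in GFRA1neg. The Cxcl12 libraries overlapped, and its call (log2 -0.93, edgeR adjusted p = 0.043) was lost when any of 6 libraries was left out, at adjusted p values of 0.067 to 0.13. Its means were 2.05 CPM in GFRA1pos and 1.597 CPM in KITpos, so both genes had P6gonocyte levels between those of GFRA1neg and of the other adult groups.

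Falls among genes still present at day 6 were also listed, a choice made after the values were seen: at least 5 CPM in P6gonocyte and GFRA1neg replicate 2 not the highest library. Fgd5, a guanine nucleotide exchange factor gene, led them with 17.5, 20.2, 21.7 and 19.5 CPM in P6gonocyte, against 209, 176, 244 and 277 CPM in GFRA1neg. Its mean of 173 CPM in GFRA1pos was near that of GFRA1neg, unlike Tmem63c at 8.01 CPM. The other members were Rpph1 (log2 -2.86, and -3.49 without P6gonocyte replicate 2), Ccnjl (-2.79), Synj2 (-2.77), Oasl2 (-2.68), Fras1 (-2.60), Pxt1 (-2.60), Plekha6 (-2.56), AI661453 (-2.55) and the Upp1, Tmem63c and Onecut2 already given.

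Many genes of the stem cell state and of the response to GDNF were higher in day 6 cells than in GFRA1neg cells. Of 26 members other than Gfra1, 14 (53.8%) rose, 4 (15.4%) fell and 8 were not called, beside 18.8% and 24.9% of all genes, with a median log2 fold change of 0.99. The gate of GFRA1neg cells was against the receptor of this pathway, and no such gate is named for day 6 cells. Etv5, a transcription factor gene induced by GDNF, had 161, 134, 180 and 188 CPM in P6gonocyte, against 26.3, 40.9, 32.0 and 34.0 CPM in GFRA1neg, a 4.97-fold rise with no overlap (log2 2.31 ± 0.31 SE, edgeR adjusted p = 2.0e-05). Bcl6b, another GDNF target, had 79.3, 61.0, 75.1 and 88.5 CPM in P6gonocyte, against 19.4, 19.7, 13.9 and 20.9 CPM in GFRA1neg. Lhx1, a homeobox gene of the same response, had 15.7, 12.6, 12.6 and 20.2 CPM in P6gonocyte, against 0.38, 1.68, 1.04 and 0.89 CPM in GFRA1neg.

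Egr2, an early response factor gene, had 71.4, 55.7, 72.5 and 82.5 CPM in P6gonocyte, against 10.4, 9.20, 10.5 and 13.7 CPM in GFRA1neg. Tcl1 rose by 2.21, Foxc2 by 1.81, Eomes by 1.79, Lhx2 and Cd82 by 1.41 each, Id4 by 1.06, Mcam by 1.04 and Adgra3 by 0.95 on the log2 scale. Shisa6 rose by 2.81, from few counts, with 4.49 CPM ± 0.81 in P6gonocyte and 0.63 ± 0.39 in GFRA1neg (SD, n = 4 each). T, the brachyury gene, had 2.08, 0.72, 1.76 and 1.92 CPM in P6gonocyte, and 2 counts in all in GFRA1neg, both in replicate 4. The GFRA1pos means were 423 CPM for Etv5, 216 for Egr2, 59.7 for Foxc2 and 27.2 for Eomes, all above the P6gonocyte means of 166, 70.5, 16.0 and 5.17 CPM. For Lhx1 (17.8 CPM), Bcl6b (89.8 CPM) and Id4 (17.1 CPM) the GFRA1pos means were close to those of P6gonocyte, at 15.3, 76.0 and 13.7 CPM. No test was made between those groups here.

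Not every member followed. Zbtb16, which encodes PLZF, had 186, 125, 234 and 207 CPM in P6gonocyte, against 400, 321, 441 and 455 CPM in GFRA1neg, a 2.15-fold fall with no overlap. Foxo1, a regulator of stem cell maintenance, fell 2.05-fold. Dusp15 and Pdx1 were called lower at low levels, but the call on Dusp15 was lost without P6gonocyte replicate 1, 3 or 4 (adjusted p = 0.062 to 0.065) or GFRA1neg replicate 2 (0.26), and that on Pdx1 without GFRA1neg replicate 3 (adjusted p = 0.093). Ret, the signalling partner of GFRA1, had 187, 182, 197 and 202 CPM in P6gonocyte, against 125, 136, 154 and 177 CPM in GFRA1neg. It was not called (log2 0.38, interval -0.09 to 0.84) and was held within 2-fold, as was Cd9 at 0.44. Both were called higher under some alternatives, Ret by limma voom (adjusted p = 0.042) and in a fit of only the 2 groups (0.0103), and Cd9 by limma voom with quality weights (0.036). Nanos2, Pax7, Thy1, Egr3, Tspan8 and Pou3f1 were not called and too low to be counted as held. Nanos2 was called lower by edgeR with only the 2 groups (log2 -0.76, adjusted p = 0.025). Egr3 was called higher by limma voom with quality weights (1.00, adjusted p = 0.026).

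**Figure D3:**
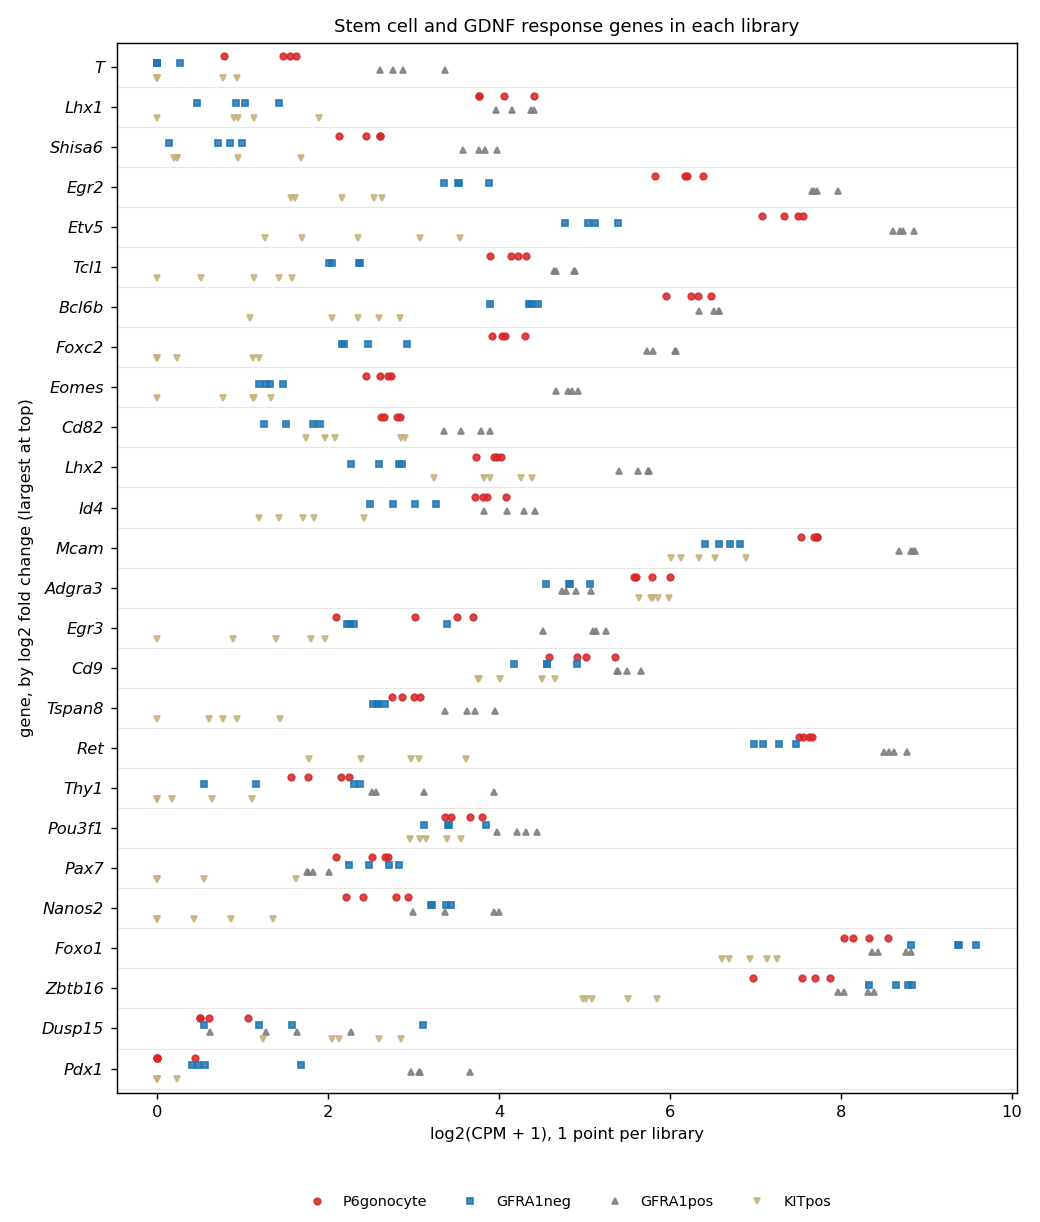
Level of each stem cell and GDNF response gene as log2(CPM + 1), with a point for every library of P6gonocyte (red circles), GFRA1neg (blue squares), GFRA1pos (grey) and KITpos (sand), ordered by the log2 fold change of P6gonocyte over GFRA1neg. For Etv5 and Egr2 the P6gonocyte points lie between those of GFRA1neg and GFRA1pos, and for Foxo1 and Zbtb16 they lie left of GFRA1neg.

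Feedback targets of MAPK signalling, which GDNF and FGF receptors activate, rose in 10 and fell in 2 of 23 cases (median 0.77). Dusp6, the gene of an ERK phosphatase, had 53.2, 57.0, 50.9 and 54.4 CPM in P6gonocyte, against 7.43, 9.52, 13.1 and 9.28 CPM in GFRA1neg. Phlda1 rose by 2.40, Spry4 by 1.83, Dusp4 by 1.43, Etv4 by 1.08 and Spred1 by 0.94 on the log2 scale. Spred2, at 0.61, and Il17rd, not called at 0.17, were held within 2-fold. The immediate early genes went separate ways, with Fos (1.25) and Ier2 (1.93) higher and Egr1 (-0.88) and Dusp1 (-0.89) lower in P6gonocyte.

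Genes of spermatogonial differentiation were in part higher at day 6 than in GFRA1neg. Of 15 members other than Kit, 6 rose and 1 fell (median 0.51). Stra8, a retinoic acid target that precedes meiosis, had 69.8, 111, 65.1 and 48.1 CPM in P6gonocyte, against 10.3, 10.96, 9.47 and 8.88 CPM in GFRA1neg, a 7.42-fold rise (log2 2.89 ± 0.23 SE, edgeR adjusted p = 1.2e-07). The Stra8 mean in KITpos was 248.6 CPM, above every P6gonocyte library. Ccnd2, a cyclin gene, had 263, 205, 268 and 295 CPM in P6gonocyte, against 64.4, 75.6, 85.4 and 71.4 CPM in GFRA1neg. Its means were 349 CPM in GFRA1pos and 47.7 CPM in KITpos, the highest and the lowest group, so here it was not a mark of Kit+ cells. Tex15 (1.13), the retinoid-binding protein gene Crabp1 (1.03), Rhox13 (0.94) and Dmrt1 (0.66) rose too. Crabp1 and Stra8 were both highest in P6gonocyte replicate 2, at 120 and 111 CPM. The de novo methyltransferase gene Dnmt3a was held within 2-fold at -0.21 and called lower without GFRA1neg replicate 2 (-0.36, adjusted p = 0.037). Insl6, the member that fell, had under 1 CPM on average in P6gonocyte and moved to -3.28 without GFRA1neg replicate 2 and -4.62 without P6gonocyte replicate 2.

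The retinoic acid pathway moved both ways, with 8 of 18 tested members higher and 5 lower (median 0.74). None was held within 2-fold, but only 6 of the 18 reached 20 CPM in a group and could have been. The receptor genes Rarg (-2.10), Rara (-0.76) and Rxra (-0.71) fell together. Those that rose include genes of enzymes, carriers and a transporter: Aldh1a1 (4.71), Aldh1a3 (2.87), Stra6 (2.35), Dhrs3 (1.53), Cyp26b1 (1.38), Rbp4 (1.07) and Crabp1 (1.03). Aldh1a1, which makes retinoic acid and is also expressed by Sertoli cells, had 38.3, 125, 36.8 and 36.6 CPM in P6gonocyte, against 0.28, 5.12, 2.54 and 0.89 CPM in GFRA1neg. Without P6gonocyte replicate 2, 6 members rose. The log2 fold change of Aldh1a1 was then 4.05, and it was 5.62 without GFRA1neg replicate 2. The part of Sertoli transcripts in these rises was not tested.

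Among 22 germ cell RNA-binding genes, 10 rose and 7 fell (median 0.24). The let-7 regulators moved apart: Lin28b had 103, 100, 104 and 122 CPM in P6gonocyte, against 61.0, 41.0, 43.4 and 49.6 CPM in GFRA1neg, while Lin28a fell. Elavl2 rose by 1.64 on the log2 scale, and Celf1 (0.49) was held within 2-fold. Of 23 genes of piRNA and transposon silencing, 9 fell, 3 rose and 13 were held within 2-fold (median -0.27). Tdrd9, a helicase gene of the pathway, had 87.7 CPM ± 14.9 in P6gonocyte and 212 ± 18.7 in GFRA1neg (SD, n = 4 each). Tdrd5 had 86.6, 81.9, 85.2 and 84.2 CPM in P6gonocyte, against 167, 161, 160 and 169 CPM in GFRA1neg. Piwil4, the gene of MIWI2, which directs DNA methylation of transposons in fetal germ cells, had 18.5, 12.5, 17.4 and 19.7 CPM in P6gonocyte, against 41.8, 38.9, 43.2 and 45.8 CPM in GFRA1neg. Mael (-0.10), Gtsf1 (0.25) and Piwil2 (-0.27) were held within 2-fold and not called. Tdrd6, a gene of spermatocytes and spermatids, fell by 5.22, and by 4.25 without GFRA1neg replicate 2.

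Of 30 meiotic prophase genes 10 (33.3%) fell, 4 (13.3%) rose and 8 (26.7%) were held within 2-fold (median -0.35). Of all genes 24.9% fell, 18.8% rose and 30.8% were held. Spo11, the gene of the enzyme that makes meiotic breaks, fell to 1.05 CPM ± 0.59 in P6gonocyte, against 5.72 ± 1.68 in GFRA1neg (SD, n = 4 each). Hfm1 (-1.49) and Meioc (-1.47) fell, and Tex11 rose by 1.31. The cohesin subunit gene Stag3 was held within 2-fold, with 221 CPM ± 17.7 in P6gonocyte and 236 ± 32.0 in GFRA1neg (SD, n = 4 each). Spermatocyte and spermatid marker sums, given below, were higher in GFRA1neg, and their part in these falls was not tested.

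Most genes of DNA replication and mitosis were higher in day 6 cells. Of 50 DNA replication genes, 43 rose, none fell by the edgeR test and 15 were held within 2-fold (median 0.91). At an unadjusted p under 0.05, 1 member was lower, and limma voom with quality weights also called 1 lower, against 0 by DESeq2 and by limma voom. Mcm4, a subunit of the replicative helicase, had 192, 200, 223 and 219 CPM in P6gonocyte, against 61.4, 57.6, 73.3 and 65.1 CPM in GFRA1neg, a 3.24-fold rise (log2 1.70 ± 0.12 SE, edgeR adjusted p = 1.9e-08). The primase gene Prim1 rose 4.09-fold, and the ribonucleotide reductase gene Rrm2 rose by 2.32 on the log2 scale, to 66.2 CPM ± 9.71 in P6gonocyte, against 13.2 ± 5.08 in GFRA1neg (SD, n = 4 each). Gins4, at 0.23, was held within 2-fold and not called.

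Of 40 genes of mitosis and the kinetochore, 32 rose and 2 fell (median 0.79). Ccnb1, the gene of cyclin B1, had 347, 390, 330 and 337 CPM in P6gonocyte, against 108, 119, 110 and 109 CPM in GFRA1neg. Kif4 rose by 1.80, Spc25 by 1.69 and Tpx2 by 1.30 on the log2 scale, while Espl1 (-0.50) and Cdc25c (-0.44) fell. Mki67, a marker of dividing cells, had 408, 128, 427 and 408 CPM in P6gonocyte, against 58.5, 86.7, 56.4 and 34.1 CPM in GFRA1neg, so that P6gonocyte replicate 2 stood nearest to the adult libraries. Without both replicate 2 libraries, a choice made after the values were seen, 40 replication and 29 mitosis genes rose.

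**Figure D4:**
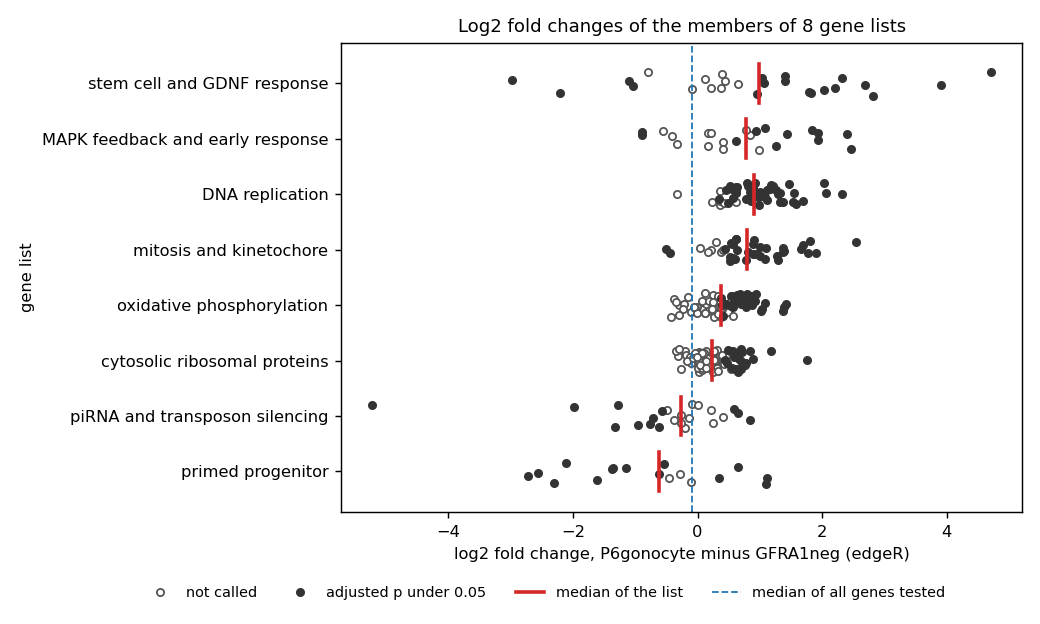
Log2 fold change (P6gonocyte minus GFRA1neg, edgeR) of the tested members of 8 gene lists, with filled points for members called at an adjusted p under 0.05, red bars at list medians and a dashed line at the median of all genes (-0.09). Replication and mitosis members form compact groups to the right, whereas primed progenitor and stem cell members lie on both sides of zero.

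Promoter windows of these lists were read from RefSeq (GRCm38.p6, 250 bases before to 50 after the start). They covered 41 of the 50 replication genes, 33 of the 40 mitosis genes and 12164 of all 15451 tested genes, called or not. Windows were searched on both strands for the E2F letters TTTGGCGC or TTTCCCGC, for the CHR letters TTTGAA, known from many mitotic promoters, and for the letters CCAAT, where a CCAAT and a CHR match can share an end letter. An E2F form was present for 34.1% of replication genes, 6.06% of mitosis genes and 3.19% of all genes. CHR letters were present for 66.7% of mitosis genes, 14.6% of replication genes and 14.9% of all genes. CCAAT letters were present for 72.7% of mitosis genes, 63.4% of replication genes and 43.4% of all genes. These are descriptions of sequence, and no binding was measured. Members that rose were not compared with those that did not, so the shares describe the lists and not the rises. For each list the window shown is that of the member with the smallest adjusted p whose window held the letters, with matches to any of the letters on either strand in capitals. Mcm6, another helicase subunit, had 365, 400, 345 and 359 CPM in P6gonocyte, against 144, 134, 157 and 149 CPM in GFRA1neg, and its window at chr1:128359656-128359955 (minus strand) has an E2F form starting at positions -110 and -47 from the start and CCAAT letters on the other strand at -57 and -14.
Mcm6: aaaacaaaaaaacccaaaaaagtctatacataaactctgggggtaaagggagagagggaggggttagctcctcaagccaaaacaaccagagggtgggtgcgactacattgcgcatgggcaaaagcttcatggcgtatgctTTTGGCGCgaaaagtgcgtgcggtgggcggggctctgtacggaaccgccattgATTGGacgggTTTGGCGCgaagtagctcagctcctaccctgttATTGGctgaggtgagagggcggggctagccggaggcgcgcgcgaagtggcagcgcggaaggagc
Kif4, a chromosome-associated kinesin, had 118, 107, 116 and 120 CPM in P6gonocyte, against 30.3, 34.8, 37.5 and 29.6 CPM in GFRA1neg. Its window at chrX:100625815-100626114 (plus strand) has CHR letters starting 20 bases into the transcript and CCAAT letters at -152 and, on the other strand, at -5.
Kif4: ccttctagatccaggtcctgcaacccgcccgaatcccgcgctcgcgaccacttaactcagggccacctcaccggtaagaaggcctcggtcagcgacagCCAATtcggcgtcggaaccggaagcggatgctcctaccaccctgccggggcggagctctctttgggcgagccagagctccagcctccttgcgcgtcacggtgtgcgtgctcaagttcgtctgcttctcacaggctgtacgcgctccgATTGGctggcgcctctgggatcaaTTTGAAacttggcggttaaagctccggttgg

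Cyclins and inhibitors of the G1 phase moved both ways. Of 26 members, 8 rose and 4 fell, and 11 were held within 2-fold (median 0.29). Ccnd1, the gene of cyclin D1, had 188, 227, 192 and 204 CPM in P6gonocyte, against 53.6, 56.3, 58.7 and 43.7 CPM in GFRA1neg (log2 1.93 ± 0.12 SE, edgeR adjusted p = 5.9e-09). Cdkn1b, which encodes the CDK inhibitor p27, had 2.36, 2.52, 4.55 and 3.99 CPM in P6gonocyte, against 25.8, 15.9, 27.3 and 24.4 CPM in GFRA1neg, a 6.95-fold fall with no overlap. Cdk6 fell by 0.84, and the inhibitor genes Cdkn2d (-1.88) and Cdkn2c (-1.47) fell as well. In the p53 and BCL2 families, 5 of 26 (19.2%) rose and 4 (15.4%) fell (median 0.04), beside 18.8% and 24.9% of all genes. The share that rose was thus near that of all genes. Pmaip1 (2.62) and Ccng1 (1.14) were higher, Zmat3 (-1.57) and Sesn3 (-0.59) lower, and Mdm2 (-0.08) and Mcl1 (0.12) held. Only 2 members of these families rose without P6gonocyte replicate 2, and 3 without GFRA1neg replicate 2. Of 16 telomerase and shelterin genes other than Tert, 5 rose and 1 fell (median 0.22), led by Dkc1 (1.47) and Tinf2 (1.07), and 3 rose without both replicate 2 libraries.

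Genes of growth had more members held than called, and a member can be both. Members that reached 20 CPM in a group numbered 31 in the MYC list, 82 in the ribosomal list and 69 in the oxidative phosphorylation list. Of all genes at that level, 63.2% were held. Of 36 genes of the MYC network and ribosome biogenesis 11 rose, 6 fell and 21 were held within 2-fold (median 0.07), with the nucleolar protein genes Ncl (1.43) and Nop58 (1.31) higher and Max, the MYC partner, lower at -1.15. Of 82 cytosolic ribosomal protein genes 21 (25.6%) rose, none fell and 67 (81.7%) were held within 2-fold (median 0.23). Of all genes 18.8% rose and 24.9% fell. The count of ribosomal rises fell to 11 without P6gonocyte replicate 2, to 13 without GFRA1neg replicate 2 and to 8 without both, where the median was -0.04. Ribosomal proteins have many near-identical processed copies, so single members such as Rpl39 (1.76), Rpl10 (1.18), Rps2 (0.89) and Rpsa (0.69) are uncertain. Oxidative phosphorylation genes rose in 33 of 76 cases with none lower (median 0.38), in 22 without P6gonocyte replicate 2 and in 19 without both replicate 2 libraries. Cycs, the gene of cytochrome c, had 172 CPM ± 33.2 in P6gonocyte and 64.5 ± 14.9 in GFRA1neg (SD, n = 4 each), Atp5pb rose by 1.38, and Sdha (0.46) and Ndufs1 (0.73) were held within 2-fold. Beside these counts of 0 lower members by edgeR, an unadjusted p under 0.05 gave 0 lower ribosomal and 1 lower oxidative phosphorylation gene, DESeq2 and limma voom called none, and limma voom with quality weights called 7 and 6.

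Glycolysis and lactate genes were divided, with 10 of 27 higher and 9 lower (median -0.06). The falls were led by the germ cell isozyme genes Ldhc (-7.04, and -5.997 without GFRA1neg replicate 2) and Pgk2 (-6.61, and -5.54), which are expressed from meiosis on. The glucose transporter gene Slc2a3 fell by 3.27, and by 2.29 without GFRA1neg replicate 2, which alone had 508 CPM. The monocarboxylate transporter gene Slc16a1 rose by 0.96, Pkm (0.63) rose within 2-fold and Mpc2 (-0.25) was held. Of 27 cholesterol synthesis genes, 7 (25.9%) rose and 5 (18.5%) fell (median -0.05), beside 18.8% and 24.9% of all genes. Msmo1 (1.32) and Idi1 (0.90) were higher and Dhcr7 (-0.93) and the regulator gene Srebf2 (-0.74) lower. Without both replicate 2 libraries, 3 members rose. Of 33 glutathione transferase and redox genes, 18 rose and 2 fell (median 0.78), and 12 rose without P6gonocyte replicate 2. Gsta4, a glutathione transferase gene, had 233, 295, 179 and 260 CPM in P6gonocyte, against 44.7, 28.7, 49.2 and 38.9 CPM in GFRA1neg. Cat (1.40), Txnrd1 (1.32) and Prdx1 (1.28) rose too, and the Gstm genes are near-identical copies whose single values are uncertain. Heat shock and dissociation stress genes went both ways, 10 higher and 7 lower of 22 (median 0.23), with Hsp90aa1 (1.35), Dnaja1 (1.21) and Hspd1 (1.19) higher and Zfp36 (-1.47) lower.

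Of 22 tested pluripotency and early germ cell genes of 30, 3 (13.6%) rose, 5 (22.7%) fell and 4 were held within 2-fold (median -0.50). Both called shares were below those of all genes (18.8% and 24.9%), and Pou5f1 was left out as a gate gene. Dppa5a (1.28) and Lin28b (1.14) rose, Trim71 (-0.87) and Klf2 (-2.94) fell, and Nanog had 1.22 CPM ± 0.49 in P6gonocyte and 2.00 ± 1.13 in GFRA1neg (SD, n = 4 each), not called. Sox2 and Prdm14 were too low to be tested. Among 20 DNA methylation genes 6 rose, 3 fell and 8 were held (median -0.03). Tet3, an oxidase of methylcytosine, had 86.8, 78.3, 111 and 83.4 CPM in P6gonocyte, against 262, 214, 253 and 261 CPM in GFRA1neg. Hells, the gene of a chromatin remodeler, rose 3.85-fold, Uhrf1 by 1.06 and Tdg by 1.04 on the log2 scale, and Dnmt3b (0.10) was held. Of 34 Polycomb and histone methylation genes 7 (20.6%) rose, 9 (26.5%) fell and 19 were held (median -0.04), shares near those of all genes (18.8% and 24.9%). Among them were the core subunit gene Eed (0.83), higher, and Phf1 (-1.75), Kmt2d (-1.64) and Kdm6b (-0.99), lower.

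Of 26 imprinted genes, which are expressed from 1 parental allele, 8 (30.8%) rose and 7 (26.9%) fell (median 0.23). Of all genes 18.8% rose and 24.9% fell. Mest had 71.2, 73.7, 80.4 and 89.7 CPM in P6gonocyte, against 14.0, 17.4, 16.6 and 18.0 CPM in GFRA1neg, a 4.78-fold rise with no overlap. Snrpn rose by 1.56 and Igf2r fell by 1.08. H19 and Igf2 were held within 2-fold, H19 with 18.5, 24.6, 20.4 and 25.7 CPM in P6gonocyte, against 18.4, 24.9, 22.6 and 21.1 CPM in GFRA1neg. The H19 mean in GFRA1pos was 96.0 CPM. Dcn, also a fibroblast gene, is given with those markers.

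Of 42 Hedgehog, Notch and Wnt genes 6 (14.3%) rose, 10 (23.8%) fell and 10 were held within 2-fold (median -0.26), near the shares of all genes. Ptch1, the Hedgehog receptor and a target of the pathway, had 64.8, 54.2, 77.3 and 62.7 CPM in P6gonocyte, against 348, 245, 310 and 347 CPM in GFRA1neg, a 4.82-fold fall with no overlap. Lef1, a Wnt effector gene, fell by 1.87, and Notch1 (1.31) and the Wnt co-receptor gene Lrp5 (1.19) rose, while Gli3 (-0.02) and Hey1 (-0.20) were held. In the TGF beta family and ID proteins 9 of 29 rose and 4 fell (median 0.46), with the receptor gene Bmpr1a (1.09) and ligand gene Bmp7 (1.05) higher, Smad3 (-1.66) lower and Smad2 and Smad4 held. Of 26 receptors and ligands of the niche 6 (23.1%) rose and 5 (19.2%) fell (median 0.12), with Epha2 (2.26) higher and Igf1r (-1.18) and Lifr (-0.92) lower, and 3 rose without both replicate 2 libraries.

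Of 30 adhesion and surface genes, 13 rose and 4 fell (median 0.59). Epcam had 71.1, 82.4, 80.2 and 81.6 CPM in P6gonocyte, against 26.0, 25.0, 23.2 and 23.1 CPM in GFRA1neg. The laminin receptor subunit genes Itga6 (1.32) and Itgb1 (1.29) rose, as did Itgav (2.19), and Cadm1 (0.22) was held. Of 23 extracellular matrix genes 6 rose and 3 fell (median -0.22), where the basement membrane gene Hspg2 fell to 46.5 CPM ± 5.94 in P6gonocyte, against 186 ± 15.1 in GFRA1neg (SD, n = 4 each). Lamb1 (-1.09) fell as well, Nid1 (1.23) rose and Fn1 (-0.25) and Lamc1 (-0.11) were held. Sparc, a matrix protein gene expressed by several somatic cells, had 45.4, 130, 46.3 and 46.2 CPM in P6gonocyte, against 6.77, 5.92, 5.55 and 10.2 CPM in GFRA1neg.

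Markers of other cells moved both ways. All 12 spermatid markers fell (median -6.83), and 9 of 12 spermatocyte markers fell with none higher (median -2.24). By edgeR at an unadjusted p under 0.05, DESeq2 and limma voom with or without quality weights, 0 members of either list were higher. Summed spermatid markers ran from 50.6 to 66.2 CPM in P6gonocyte and from 603 to 2462 CPM in GFRA1neg, and Odf2 with a mean of 51.2 CPM made up most of the P6gonocyte sum. Summed spermatocyte markers ran from 205 to 315 CPM in P6gonocyte and from 637 to 2384 CPM in GFRA1neg. Prm1, the protamine gene of spermatids, had no count in the 4 P6gonocyte libraries, against 144, 343, 81.1 and 89.6 CPM in GFRA1neg, at least 1777-fold lower in P6gonocyte by the floor. The 12 largest falls of genes with at least 20 CPM and no overlap included the spermatid chromatin and tail genes Prm1, Prm2, Hils1 and Smcp, besides Prr30, Cabs1, Morc2b, Mroh4, Actl11, Spem2, 1700008K24Rik and 1700013G24Rik. All 12 were highest in GFRA1neg replicate 2. Limma voom did not call Prm2 (adjusted p = 0.090), Smcp (0.064) or Actl11 (0.058). Of all called falls, 316 (8.22%) had no count in P6gonocyte, and 47.6% were highest in GFRA1neg replicate 2, as were 27.01% of all tested genes. The part of late germ cell transcripts in the other falls was not tested. Without both replicate 2 libraries, 9 progenitor genes and 12 spermatid markers were called lower.

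In the other direction, 11 of 15 tested Sertoli markers rose and none fell (median 3.16), and 9 rose without P6gonocyte replicate 2. An unadjusted p under 0.05 by edgeR, DESeq2 and limma voom gave 0 lower members, and limma voom with quality weights 2. The summed level of 19 matched members ran from 694 to 894 CPM in P6gonocyte and from 352 to 486 CPM in GFRA1neg. Most of it was Tjp1, at a mean of 432 CPM in P6gonocyte and 296 CPM in GFRA1neg, and Ctsl, at 175 CPM in P6gonocyte and 78.5 CPM in GFRA1neg, which other cells also express. The defining markers were present at low levels: Sox9 had 4.30, 10.7, 4.35 and 5.08 CPM in P6gonocyte, against 2.35, 1.44, 1.73 and 1.58 CPM in GFRA1neg, and its call was lost without P6gonocyte replicate 2 (adjusted p = 0.083). Amh, the hormone gene of immature Sertoli cells, had 3.75, 6.25, 3.42 and 3.16 CPM in P6gonocyte, against 0.47, 0.24, 0.12 and 0 CPM in GFRA1neg. Clu had 21.2, 84.8, 25.0 and 23.5 CPM in P6gonocyte, against 1.13, 3.12, 1.73 and 2.86 CPM in GFRA1neg, and Aard, also a Sertoli gene, had 22.2, 76.2, 21.2 and 25.1 CPM in P6gonocyte, against 1.13, 0.96, 2.54 and 2.07 CPM in GFRA1neg. Without P6gonocyte replicate 2 the log2 fold change of Clu moved to 3.38 and that of Aard to 3.78. Wt1, another Sertoli gene, did not follow. It was not called by edgeR (adjusted p = 0.16). It was called lower by limma voom with quality weights (log2 -1.44, adjusted p = 0.0017) and by edgeR with the replicate block (-1.10, 0.027).

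**Figure D5:**
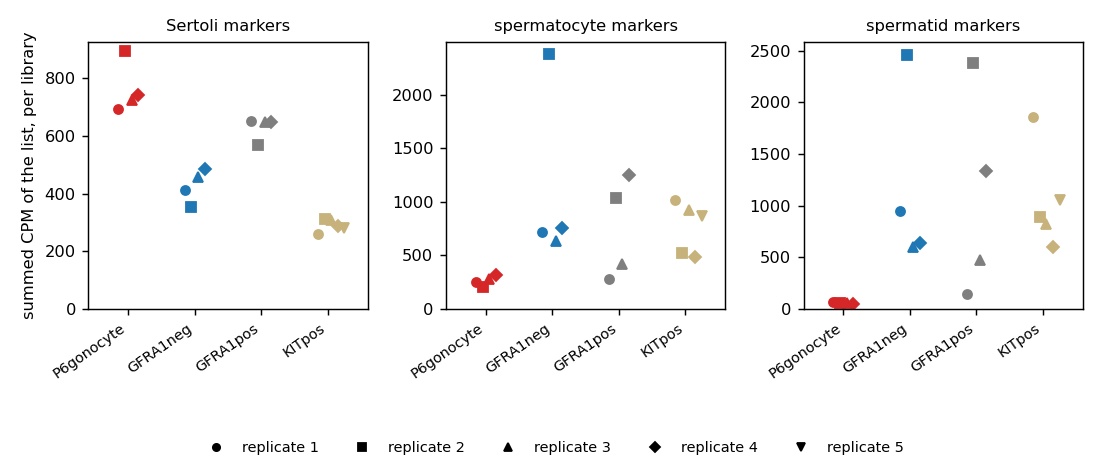
Summed CPM of Sertoli (19 genes), spermatocyte (12) and spermatid (12) markers in each library, by group, with a marker shape for each replicate number. P6gonocyte libraries are highest for Sertoli markers (694 to 894 CPM) and lowest for spermatid markers (50.6 to 66.2 CPM), and GFRA1neg replicate 2 is the highest point of the spermatid panel (2462 CPM).

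The other lists of foreign cells were low. Leydig markers rose in 3 and fell in 1 of 11 tested cases (median -0.02, and 0.70 when only the 2 groups were fitted). Their sums ran from 63.8 to 98.2 CPM in P6gonocyte and from 63.6 to 86.8 CPM in GFRA1neg. Among the rises was Akr1cl (4.18 on the log2 scale). The fall was of Cyp17a1 (-2.385), a call lost without GFRA1neg replicate 2 (adjusted p = 0.15), among others. Insl3, at a mean of 0.28 CPM in P6gonocyte and 1.91 CPM in GFRA1neg, was not called (edgeR adjusted p = 0.082). It was called lower without GFRA1neg replicate 1 (0.036) or 4 (0.047). Peritubular myoid and fibroblast markers rose in 3 of 9 cases with 0 lower by edgeR (median 1.29), where an unadjusted p under 0.05 gave 1 lower, DESeq2 0, limma voom 1 and limma voom with quality weights 3, with sums of 52.2 to 65.8 CPM in P6gonocyte and 42.0 to 49.8 CPM in GFRA1neg. Col3a1 had 5.12 CPM ± 1.40 and Dcn 3.50 ± 1.49 in P6gonocyte, against 0.26 ± 0.30 and 0.11 ± 0.10 in GFRA1neg (SD, n = 4 each). Macrophage and leukocyte markers fell in 3 and rose in 1 of 5 tested cases (median -1.13), with sums of 9.94 to 14.3 CPM in P6gonocyte and 25.3 to 46.4 CPM in GFRA1neg, and C1qa at no count in both groups. The member that rose was Mrc1 (2.10 on the log2 scale, and 3.50 without GFRA1neg replicate 2). Endothelial markers had 1 higher and 1 lower of 8 (12.5% each, median 0.08), beside 18.8% and 24.9% of all genes. Without P6gonocyte replicate 3, 2 were higher. Their sums ran from 31.4 to 36.9 CPM in P6gonocyte and from 34.0 to 44.8 CPM in GFRA1neg. For red blood cells 1 of 8 markers was tested, higher at an unadjusted p under 0.05 and by limma voom with quality weights but not called by edgeR, DESeq2 or limma voom, and sums ran from 4.44 to 25.6 CPM in P6gonocyte and from 1.502 to 2.48 CPM in GFRA1neg. Up to 3 of these markers were called higher when a library was left out.

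The 12 largest rises under the same conditions drew on several of these groups. Nefm, a neurofilament gene that is high in GFRA1pos, had 47.5, 35.2, 32.8 and 43.0 CPM in P6gonocyte, against 0.38, 2.48, 1.96 and 1.18 CPM in GFRA1neg, a 26.4-fold rise, with a GFRA1pos mean of 57.0 CPM. Gfpt2, of hexosamine synthesis, had 27.3 CPM ± 4.88 in P6gonocyte and 3.04 ± 0.55 in GFRA1neg (SD, n = 4 each). The replication factors Dscc1 (3.13) and Pclaf (2.87), Nav1 (2.94) and Stra8 (2.89) were also among them. For Aldh1a1, Aard, Clu, Sparc, AU015836 and the transferase gene Gstm2 (3.95, and 3.33 without P6gonocyte replicate 2), P6gonocyte replicate 2 was the highest library. Of all called rises, 48.3% were highest in that library, as were 38.9% of all tested genes.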

How the data were processed

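RNA of cells sorted into Trizol LS after enzymatic dissociation of testes was amplified from 5 to 10 ng of total RNA with NuGEN Ovation V2 and sequenced as paired ends, per the labels' protocols. The authors deposited raw counts per Entrez gene ID. The submitters' processing notes name mm9, Trim Galore, TopHat2 2.0.4 and Bowtie2 2.0.0-6 among others, and how reads were counted, with or without strand, is not given in the sources used here, so overlapping and antisense genes cannot be told apart. Amplification from little RNA can raise the spread of low genes, and counts without molecular identifiers do not count molecules.

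Of 24013 rows, 23930 took a symbol from RefSeq (GRCm38.p6) and 1179 had counts equal to another row. A column whose name begins GFPa1pos was read as GFRA1pos replicate 1. edgeR 4.0.16 (R 4.3.3) fitted all 17 libraries with a mean per group, TMM scaling, filterByExpr, the quasi-likelihood F-test and Benjamini-Hochberg adjustment over 15451 genes, with calls at an adjusted p under 0.05. The standard error is the log2 fold change over the square root of F, and the interval covers 95%. The fit was also run on simulated data with 200 genes changed in both directions. In the data 6741 genes were called, so that run cannot show how scaling holds under so many changes. Counts of replicate pairs differed by more than sampling noise (chi-square per degree of freedom 3.89 to 31.9), so all libraries were kept as replicates. Replicate numbers did not pair samples: deviations of same-numbered libraries correlated at 0.05, 0.05, 0.01 and -0.03.

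The members and lists were chosen with earlier results of these data known. Genes were named by rule: the sort genes and Neurog3, the 12 largest rises and falls with a mean of 20 CPM or more in either group and libraries that did not overlap, all members of the primed progenitor, stem cell and earlier-named lists, for each other list up to 4 called members of smallest adjusted p and 2 held within 2-fold with the narrowest interval, and the 6 most abundant genes held within 2-fold outside the lists. Named outside it, after their values were seen, were the falls with at least 5 CPM in P6gonocyte, the Sertoli and pluripotency markers described singly, and Aldh1a3, C1qa, Cdc25c, Cdkn2c, Cdkn2d, Cyp26b1, Dhrs3, Dusp1, Dusp4, Espl1, Etv4, Fos, Ier2, Odf2, Phlda1, Rbp4, Rhox13, Spry4, Stra6 and Tex15. A member of the retinoic acid list is not reported here by name. No test of a list was made, and Dnmt3c and Rhox5 were not matched. Alternatives were RLE and upper-quartile scaling, other count filters, DESeq2 1.42.0, limma 3.58.1 (voom, with and without quality weights), a fit of the 2 groups with and without a replicate block, removal of the most abundant row, and each library left out.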

Additional observations from a re-analysis of the deposited data

Results flagged for a closer look

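In 181 groups of 4 libraries (named genes and marker sums), 27 held a library far from the other 3 by Dixon's criterion, or 14.9%. In unselected and independent groups chance gives about 1 in 20. Some of these genes were named for large changes, and genes can vary together, so that rate is no yardstick here. Of the 27, 10 were in P6gonocyte replicate 2 and 12 in GFRA1neg replicate 2.

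P6gonocyte replicate 2 stood high for Aldh1a1 at 124.7 CPM (36.6 to 38.3 in the others), Sparc at 129.5 CPM (45.4 to 46.3), Clu at 84.77 CPM (21.2 to 25.1), Aard at 76.23 CPM (21.2 to 25.2), Gstm2 at 56.39 CPM (13.6 to 20.5) and AU015836 at 54.95 CPM (19.5 to 23.8). It stood low for Pou5f1 at 5.531 CPM (23.1 to 26.3) and Gfra1 at 117.7 CPM (151 to 157). Dusp15 at 1.082 CPM and Pdx1 at 0.3607 CPM, against no count of Pdx1 in the others, rest on few reads. The part of Sertoli transcripts in this library was not tested.

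GFRA1neg replicate 2 stood high for the spermatocyte sum at 2384 CPM (637 to 761 in the others), Smcp at 254.1 CPM, Prr30 at 188.7 CPM, Morc2b at 148.2 CPM, Mroh4 at 129.2 CPM, 1700008K24Rik at 106.4 CPM, Actl11 at 88.53 CPM and Spem2 at 75.41 CPM, and for the Leydig sum at 86.77 CPM (63.6 to 66.3). It stood low for the progenitor genes Msi2 at 158.1 CPM (215 to 224), Rarg at 31.27 CPM (47.1 to 49.3) and Rhox10 at 5.518 CPM (11.3 to 12.04). GFRA1neg replicate 4 stood high for Egr3 at 9.476 CPM, T at 0.1974 CPM and the endothelial sum at 44.81 CPM. GFRA1neg replicate 3 stood high for Pdx1 at 2.195 CPM, and P6gonocyte replicate 4 for the red blood cell sum at 25.56 CPM (4.44 to 7.94).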

How the results depend on the processing

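No called value of a named gene changed sign under any alternative tried, but the median of 11 of 38 lists did under at least 1 of them. None of these 11 medians was larger than 0.23 in size. That of ribosomal proteins was -0.04 without both replicate 2 libraries, and that of Leydig markers was 0.70 with only the 2 groups and 1.01 with the replicate block. Numbers of genes called higher ran from 2452 to 2675 and lower from 3351 to 3619 when a library was left out, and 2152 and 3100 were called without both replicate 2 libraries, a setting chosen after seeing the data. Ribosomal protein genes called higher, 21 in all, numbered 11 to 26 with a library left out and 8 without both replicate 2 libraries. Oxidative phosphorylation genes called higher, 33 in all, numbered 22 to 36 with a library left out and 19 without both. Fewer libraries enter these fits. The cause of the larger losses was not tested. With the replicate block, 6882 genes were called, 3388 higher and 3494 lower, and with only the 2 groups and no block 6999. DESeq2 called 7156, limma voom 6508, limma voom with quality weights 8551, RLE scaling 6842 and upper-quartile scaling 6777. Among named genes, 20 not called were called under at least 1 alternative, 67 times in all, and 26 called were not called under at least 1, 98 times in all. Depth limits genes of a few counts, such as T, Pdx1 and Amh.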
